A study of Mus musculus with 6 samples.

Results

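The coagulation and fibrinolysis factors form a set of 33 genes, taken by gene symbol from the 55487 genes of the deposited liver tables. All 33 were found, and all 33 passed the filter on low counts. They were divided by the cell that mainly makes them, as textbook knowledge has it: 25 are made by hepatocytes, and 8 by endothelial, stromal, blood or other cells. The members were chosen by symbol and not by a measured value, but the set was proposed with earlier results of these data known, including this contrast between mutant and control liver. Therefore the counts and folds below describe these genes, and no test was run over the set.

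The livers came from male C57/Bl6J mice on a high-fat diet (HFD), in 2 groups of 3 libraries. Controls were Alb cre +/-, and mutants were RXRa f/f Alb cre+/-, so that both groups carried the albumin-driven Cre recombinase, which acts in hepatocytes. The sample titles call the groups WT and Cre, the design text calls the second group an Rxra S65A mutant, and how that substitution relates to the f/f allele is not given in the sources used here. Age and time on the diet are not given either, and no label says in words that the 3 libraries of a group came from 3 animals. The tests therefore weigh differences against library spread, which may in part be technical.

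Coagulation is a chain of serine proteases that circulate as inactive precursors and end in thrombin, which cuts fibrinogen to fibrin. It starts either from tissue factor and factor VII or from the contact system of factor XII, prekallikrein and kininogen. Serpins and the protein C pathway restrain it, and plasmin, cut from plasminogen by its activators, dissolves the clot. The liver secretes most of these proteins, whereas tissue factor, von Willebrand factor, thrombomodulin, factor VIII and the plasminogen activators come largely from endothelial, stromal and blood cells.

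Totals were 35847386 to 43162557 estimated counts per library. The 22 major urinary protein genes (Mup) took 1.85 to 3.09% of the counts in the controls and 12.8 to 16.9% in the mutants, so that the scale decides the direction of many small changes. On TMM-scaled CPM (counts as a share of the library total, scaled so that the typical gene is level) the median log2 fold change over all tested genes was 0.00. On plain library totals it was -0.40, and on totals without the Mup genes -0.21. Deposited TPM (transcript shares corrected for gene length) are shares of all transcripts, like the plain totals. Rxra itself had TPM of 181, 170 and 152 in the controls and 174, 119 and 148 in the mutants. Its log2 fold change on the TMM scale was 0.40, with an edgeR adjusted p of 0.0724, so it was not called. The level of a transcript does not check a substitution in it.

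Of the 6 hepatocyte markers listed 5 were matched by symbol. The symbol Tf was not matched, which does not show that the gene is absent. The 5 matched markers summed to TPM of 61006 to 72945 in the controls and 43235 to 51252 in the mutants. Their sums overlapped on the TMM scale, with 68160 to 80443 CPM against 72601 to 80910 CPM, and 2 of the 5, Apoa1 and Hnf4a, were called higher, with log2 fold changes of 0.53 and 0.67, and none lower. These 2 markers lay on the same side as the 10 hepatocyte-made members called below, and their part in those calls was not tested. Several marker lists of other cells held genes called lower. On the TMM scale 7 of 8 stellate and fibroblast markers, 5 of 6 monocyte and macrophage markers, 3 of 10 endothelial markers and 1 of 5 Kupffer cell markers were called lower, and none of these 4 lists had a member called higher. Over all tested genes 6.82% were called lower and 6.64% higher on that scale. Of the 4 neutrophil markers 2 could be tested, and 2 were called lower, while none of the 4 lymphocyte markers was called. With 1 library left out at a time, 0 to 4 endothelial, 0 to 4 Kupffer cell and 0 to 1 neutrophil markers were called lower. Those fits called 2.93 to 5.09% of all tested genes lower. The 4 biliary markers had a median log2 fold change of 0.30 on the TMM scale, and 1 of them, Sox9, was called higher. Fewer cells of a type and less RNA per cell cannot be told apart in bulk tissue.

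The 25 hepatocyte-made transcripts were abundant. Their control mean TPM ran from 27.2 for F11 to 3314.1 for Serpinc1, which encodes antithrombin. Together they made up 1.69% of all TPM in the controls and 1.31% in the mutants. The sum was 16141, 18440 and 16114 TPM in the controls and 13559, 12180 and 13592 TPM in the mutants, so the groups did not overlap. On the TMM scale the order was the other way, with 18561 to 21677 CPM in the controls and 22156 to 23379 CPM in the mutants, again with no overlap. The 8 other members lay far lower, with control mean TPM of 0.808 for Plat to 4.07 for F3.

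**Figure D1:**
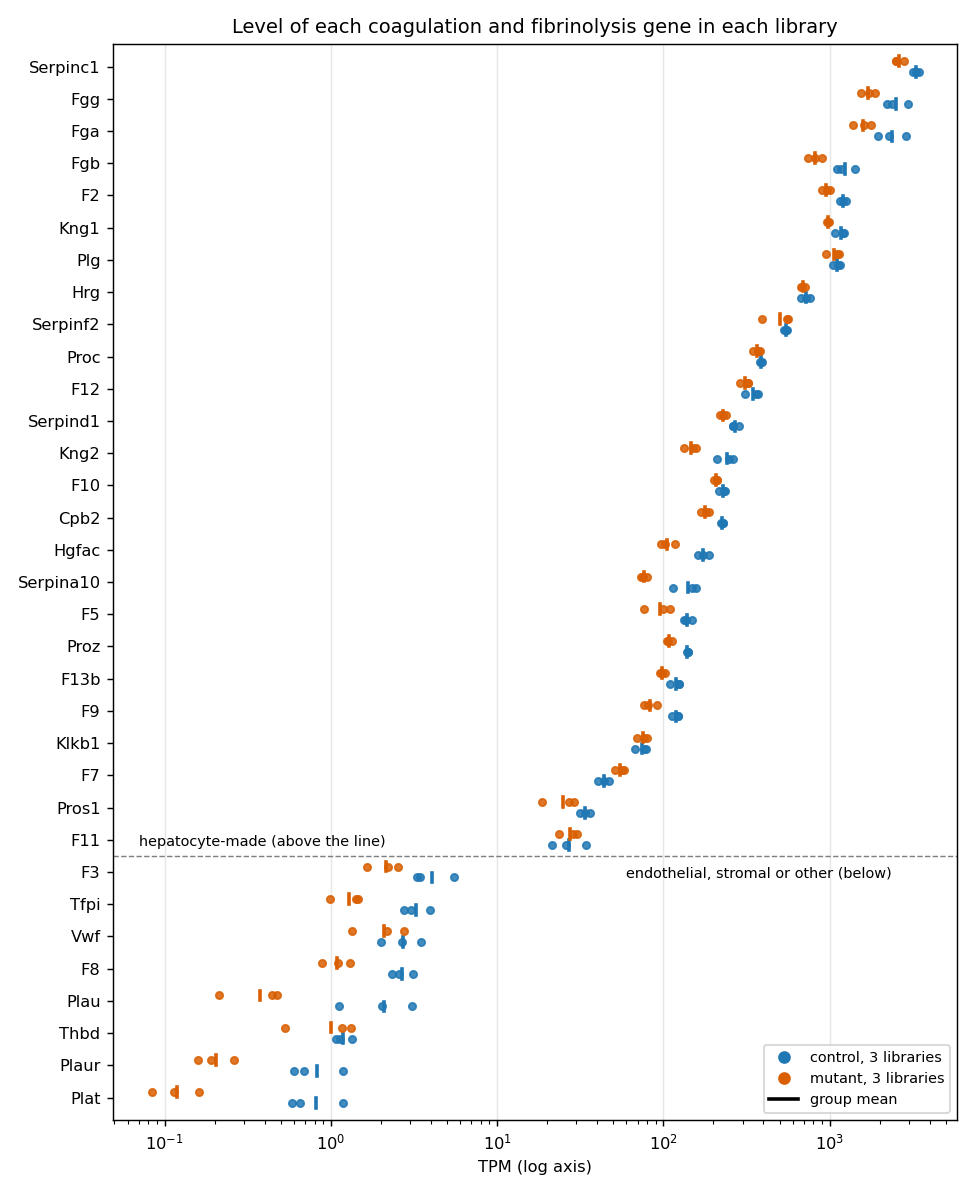
TPM of each of the 33 genes on a log axis, 1 point per library, with controls and mutants in separate colours and a bar at each group mean. The hepatocyte-made genes lie between 27.2 and 3314.1 TPM in the control means and the other 8 between 0.808 and 4.07 TPM, where the mutant points lie to the left of the control points for 6 genes.

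On the TMM scale 10 of the 25 hepatocyte-made genes were called higher in the mutants at an edgeR adjusted p under 0.05, none was called lower and 15 were not called. They were F7, F10, F11, F12, Klkb1, Plg, Hrg, Proc, Serpind1 and Serpinf2. The median log2 fold change over all 25 was 0.27. Without control 1, mutant 1 or mutant 3 the count was 6, and F7, F10, Klkb1, Plg, Hrg and Proc were the 6 called whichever library was left out. In these fits 3.11%, 2.87% and 5.1% of all tested genes were called higher. Of all 14286 tested genes, 6.64% were called higher and 6.82% lower on that scale. On plain library totals the same 25 genes gave 1 call higher, F7, and 6 calls lower, with a median of -0.13, beside 2.05% of all genes called higher and 31.6% called lower. The increase of the 10 genes is therefore an increase relative to the typical gene, and F7 alone was also called higher on library totals. As shares of all transcripts 22 of the 25 had a lower mean TPM in the mutants. The median was 79.6% of the control level and the range 54.2 to 125.7%. The typical gene was lower in TPM as well. By limma on log2(TPM + 1) the median log2 fold change was -0.48 over all tested genes, of which 63.6% were called lower. Over these 25 genes it was -0.33.

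The 8 endothelial, stromal or other members had 2 genes called lower on the TMM scale, Plat and Plau, none called higher and 6 not called, with a median log2 fold change of -0.71. On plain library totals 5 were called lower, and the median was -1.11. Mean TPM was lower in the mutants for 8 of 8, at 14.8 to 85% of the control level. By limma on log2(TPM + 1), 63.6% of all tested genes were called lower. CPM ranges of the groups did not overlap for 16 of the 25 hepatocyte-made genes, all higher in the mutants on the TMM scale, and for 5 of the 8 others, all lower. Over all tested genes 34.9% had CPM ranges that did not overlap. The share without overlap in TPM was not counted over all genes.

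**Figure D2:**
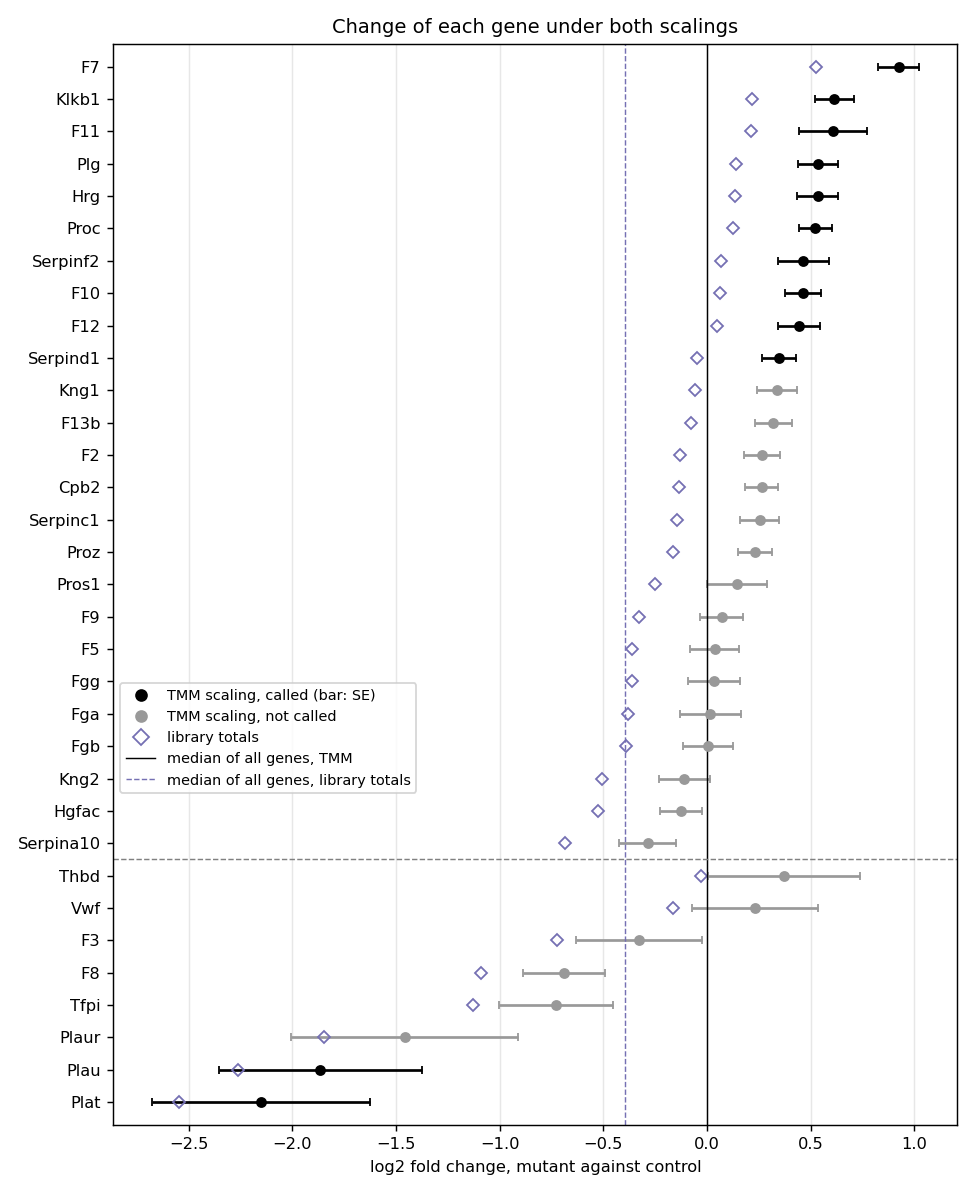
Log2 fold change of each gene, mutant against control, with the standard error of the TMM fit as a bar, and the value on library totals as a second marker. On the TMM scale 22 of the 25 hepatocyte-made genes are above 0 and 6 of the 8 others below it, and the library-total values lie to the left of these.

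Factor VII, factor X and protein Z are made from 3 genes that lie side by side on chromosome 8 of mm10, all on the plus strand. F7 spans 13026034 to 13035809, F10 13037308 to 13056676 and Proz 13060914 to 13076026. Factor VII, once bound to tissue factor, activates factor X, which in turn cuts prothrombin, and protein Z is the cofactor of a serpin that inhibits activated factor X. The 80 bases before the RefSeq start of each (GRCm38.p6) are shown because these neighbours differed in their change, and those of F2 and F5 because they hold the same short motif. Capitals mark TGACCT, the reverse complement of AGGTCA, the core sequence bound by many nuclear receptors.
F7: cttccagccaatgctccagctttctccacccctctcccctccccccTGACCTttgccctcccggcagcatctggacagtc
F10: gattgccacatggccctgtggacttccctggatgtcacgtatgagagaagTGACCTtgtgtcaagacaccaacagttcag
Proz: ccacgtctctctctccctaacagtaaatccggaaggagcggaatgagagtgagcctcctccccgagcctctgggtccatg
F2: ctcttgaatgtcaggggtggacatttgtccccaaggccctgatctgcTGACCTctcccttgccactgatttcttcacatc
F5: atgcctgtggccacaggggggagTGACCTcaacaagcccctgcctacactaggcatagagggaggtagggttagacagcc

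These windows are chr8:13025954-13026033, chr8:13037228-13037307 and chr8:13060828-13060907 on the plus strand, chr2:91636458-91636537 on the minus strand and chr1:164151755-164151834 on the plus strand. The match began 34 bases before the start in F7, 30 in F10, 33 in F2 and 57 in F5, and the Proz window held none. RefSeq promoter windows were found for 25 of the 33 members, and those of Kng1, Plat, Plau, Plg, Proc, Serpina10, Thbd and Vwf were not matched. In these 80 bases AGGTCA on either strand stood in 5 of the 25 (F2, F5, F7, F10 and Kng2), or 20.0%, and in 4.70% of all windows. In windows from 250 bases before to 50 after the start, it stood in 11 of 25 members (44.0%) and in 16.3% of all 32851 windows. The 25 members had 26 windows, and a member was counted if any of its windows matched, whereas the background counts windows. The HNF1 half-site GTTAAT stood in 6 members (24.0%) and in 7.10% of all windows, and the STAT motif TTCNNNGAA in 5 (20.0%) and 8.30%. None of the 25 members held 2 AGGTCA in direct repeat with 1 base between, which stood in 0.0396% of all windows. The C/EBP-like motif TTGCGCAA stood in none of them either, and in 0.183% of all windows. Of the members with the AGGTCA match near the start, F7 and F10 were called higher on the TMM scale, while F2, F5 and Kng2 were not called. The log2 fold changes were 0.92 for F7, 0.46 for F10, 0.27 for F2, 0.04 for F5 and -0.11 for Kng2. The Kng2 window, not printed above, held AGGTCA itself, 56 bases before the start. A match is a description of the letters and not a bound site.

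F7 had the highest log2 fold change of the 33 genes on the TMM scale. It had 48.9, 52.1 and 44.3 CPM in the controls and 91.1, 89.3 and 95.4 CPM in the mutants. The 3 mutant libraries all lay above the 3 controls, and the log2 fold change was 0.92 ± 0.10 (SE, n = 3 against 3), with an edgeR adjusted p of 0.00112. It was also higher as a share of all transcripts, with TPM of 44.1, 47.0 and 40.6 against 56.6, 50.9 and 58.0. F7 was called higher under every one of the 15 alternatives run, the only called member of which this was true, and on library totals its log2 fold change was 0.53.

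F10 had 250, 252 and 228 CPM in the controls and 326, 344 and 335 CPM in the mutants, a log2 fold change of 0.46 ± 0.09 on the TMM scale with an edgeR adjusted p of 0.0119. In TPM the order was reversed, with 232, 235 and 216 in the controls and 209, 202 and 211 in the mutants, and on library totals the log2 fold change was 0.06 and not called. Proz had 290, 289 and 281 CPM against 322, 344 and 344 CPM. The change was 0.23 ± 0.08 on the log2 TMM scale, where it was not called (edgeR adjusted p = 0.0989), and -0.17 on library totals.

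A ratio of neighbours within a library does not depend on how libraries are scaled. The TPM of F7 were 0.190, 0.20 and 0.188 of those of F10 in the controls and 0.271, 0.251 and 0.275 in the mutants. The groups did not overlap, and the ratio differed by 0.46 on the log2 scale. F7 to Proz gave 0.314, 0.336 and 0.294 against 0.527, 0.483 and 0.516, a log2 difference of 0.70. F10 to Proz gave 1.65, 1.68 and 1.56 against 1.95, 1.92 and 1.87, a log2 difference of 0.23. For each of the 3 ratios the two-sided exact permutation test gave p = 0.1, the smallest that 3 libraries against 3 allow, and an adjusted p of 0.1667 over the 10 neighbour ratios computed. The ratios were chosen after the data were seen.

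**Figure D3:**
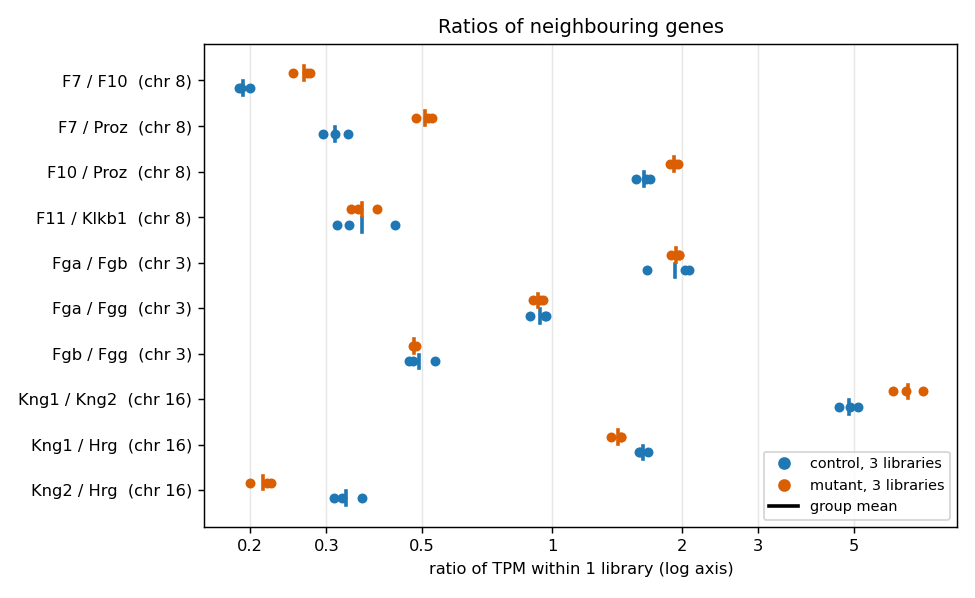
Ratio of the TPM of neighbouring members within each library on a log axis, 1 point per library, with a bar at each group mean. The 3 ratios among F7, F10 and Proz and the 3 among Kng1, Kng2 and Hrg show no overlap between groups, whereas those of F11 and Klkb1 and of the 3 fibrinogen genes overlap.

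Prothrombin (F2), factor V and factor IX were not called on the TMM scale. F2, the precursor of thrombin, had TPM of 1153.9, 1260.0 and 1198.7 in the controls and 964, 900 and 1010.2 in the mutants. This gave a log2 fold change of 0.27 ± 0.09 on the TMM scale, with an edgeR adjusted p of 0.0826, and -0.13 on library totals. F5, the cofactor of activated factor X, had TPM of 133, 137 and 149 against 99.7, 76.6 and 109, and its log2 fold change was 0.04 ± 0.12 on the TMM scale, -0.064 without mutant 3 and -0.36 on library totals. F9, the protease that works with factor VIII, had TPM of 112, 123 and 122 against 76.0, 80.9 and 91.0. The log2 fold change of F9 was 0.07 ± 0.10 on the TMM scale and -0.33 on library totals. For all 3 the mutant TPM lay below those of every control library. F13b, the carrier subunit of the clot-stabilising factor XIII, had TPM of 125, 110 and 124 against 98.2, 95.8 and 102. Its log2 fold change was 0.32 ± 0.09 on the TMM scale, with an edgeR adjusted p of 0.0506, and -0.08 on library totals.

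Of the 4 contact system genes, 2 were called higher on the TMM scale, Klkb1 and F12, while Kng1 and Kng2 were not called. Klkb1 encodes prekallikrein, which factor XII activates and which in return activates factor XII. It had 257, 226 and 260 CPM in the controls and 372, 368 and 397 CPM in the mutants, with a log2 fold change of 0.61 ± 0.09 and an edgeR adjusted p of 0.00539. Its TPM overlapped, with 76.7, 67.3 and 79.0 against 76.5, 69.3 and 80, and on library totals its log2 fold change was 0.22 and not called. F12, the protease that starts the contact pathway, had 409, 421 and 344 CPM against 529, 524 and 543 CPM. The log2 fold change of F12 was 0.44 ± 0.10 on the TMM scale (edgeR adjusted p = 0.0249) and 0.05 on library totals, while its TPM overlapped with a lower mean in the mutants (360, 370 and 308 against 321, 291 and 323).

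F11, the next protease of the chain, was also called higher on the TMM scale. It had 33.5, 27.6 and 43.1 CPM in the controls and 56.2, 48.3 and 54.3 CPM in the mutants. F11 had a log2 fold change of 0.61 ± 0.16 on the TMM scale (edgeR adjusted p = 0.0437) and 0.21 on library totals. The calls of F11 and F12 were lost in most fits with 1 library left out. Those fits called 882 to 1514 of all genes, against 1923 in the full fit. The log2 fold changes in them were 0.47 to 0.80 for F11 and 0.36 to 0.50 for F12. With 1 library left out at a time, F11 was called only without control 3 and F12 only without control 2 or without mutant 2, with adjusted p up to 0.129 and 0.0745. F11 and Klkb1 are neighbours on the minus strand of chromosome 8, at 45241174 to 45262031 and 45266689 to 45294859. The ratio of F11 to Klkb1 was 0.339, 0.318 and 0.432 in the controls and 0.393, 0.342 and 0.356 in the mutants, so the groups overlapped (exact permutation p = 0.9, two-sided). Klkb1 shares exon sequence with the gene model Gm45753 on the same strand, whose estimated counts were at most 2.68% of those of Klkb1 in any library.

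The kininogens and histidine-rich glycoprotein are encoded within a short stretch of chromosome 16, with Hrg at 22951072 to 22961656, Kng2 at 22985854 to 23029482 and Kng1 at 23057865 to 23082078. Kininogen carries prekallikrein and factor XI and releases bradykinin, and histidine-rich glycoprotein binds heparin, plasminogen and factor XII. Hrg had 735, 769 and 673 CPM in the controls and 1007.8, 1136.2 and 1004.2 CPM in the mutants. Hrg had a log2 fold change of 0.53 ± 0.10 on the TMM scale (edgeR adjusted p = 0.0114) and 0.13 on library totals, while its TPM overlapped with a lower mean in the mutants (725, 759 and 676 against 686, 709 and 669). Kng1 had TPM of 1211.1, 1216.5 and 1075.7 against 987, 973 and 966, with a log2 fold change of 0.34 ± 0.10 on the TMM scale (edgeR adjusted p = 0.0525) and -0.06 on library totals. Kng2 had TPM of 263, 248 and 211 against 150, 158 and 134, with log2 fold changes of -0.11 ± 0.12 and -0.51 on these scales.

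The ratio of Kng1 to Kng2 was 4.61, 4.90 and 5.09 in the controls and 6.58, 6.15 and 7.22 in the mutants, a log2 difference of 0.45. Kng2 to Hrg gave 0.362, 0.327 and 0.313 against 0.219, 0.223 and 0.20, a log2 difference of -0.64. Kng1 to Hrg gave 1.67, 1.60 and 1.59 against 1.44, 1.37 and 1.44, a log2 difference of -0.19. None of the 3 ratios overlapped between the groups, each with an exact permutation p of 0.1, the smallest possible. Kng1 and Kng2 are closely related copies, and the division of reads between them is uncertain. Their summed TPM was 1473.8, 1464.9 and 1287.0 in the controls and 1136.7, 1130.7 and 1100.3 in the mutants, or 79.7% of the control mean.

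Fibrinogen is built from 3 chains, whose genes Fgg, Fga and Fgb lie together on chromosome 3 between 83007724 and 83049863. Fga had TPM of 1951.6, 2881.6 and 2290.0 in the controls and 1769.7, 1390.6 and 1612.3 in the mutants. Fgb had 1176.8, 1417.1 and 1104.6 against 901, 738 and 819 TPM. Fgg had 2202.6, 2978.5 and 2377.1 against 1862.7, 1542.4 and 1722.6 TPM. Control 2 was the highest library for all 3 chains, and every mutant TPM lay below every control TPM.

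On the TMM scale the 3 chains gave log2 fold changes of 0.01 ± 0.15 for Fga, 0.00 ± 0.12 for Fgb and 0.03 ± 0.13 for Fgg, with edgeR adjusted p of 0.962, 0.987 and 0.895, and their CPM overlapped. These values lay on either side of 0 with single libraries left out. On library totals the values were -0.38, -0.39 and -0.36. The proportions of the chains can be read from their ratios. Fga to Fgg was 0.886, 0.967 and 0.963 in the controls and 0.950, 0.902 and 0.936 in the mutants, and the 3 ratios among the chains overlapped between groups, with log2 differences of 0.02, -0.01 and -0.03 and exact permutation p of 0.7 to 1.0.

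Among the anticoagulants Proc was called higher on the TMM scale. It encodes protein C, which after activation by thrombin and thrombomodulin destroys activated factors V and VIII. Proc had 315, 326 and 315 CPM in the controls and 449, 453 and 472 CPM in the mutants. The spread within each group was small, and the log2 fold change was 0.52 ± 0.08 on the TMM scale (edgeR adjusted p = 0.00564) and 0.12 on library totals, where it was not called. Its TPM overlapped, with 379, 392 and 385 against 372, 344 and 383. Pros1, the gene of the cofactor protein S, had TPM of 36.3, 31.6 and 33.9 against 29.2, 18.6 and 27.1, and its log2 fold change was 0.14 ± 0.14 on the TMM scale and -0.25 on library totals.

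Serpind1 encodes heparin cofactor II, a thrombin inhibitor. It had 344, 344 and 365 CPM against 433, 448 and 459 CPM, with a log2 fold change of 0.35 ± 0.08 on the TMM scale (edgeR adjusted p = 0.0288) and -0.05 on library totals. Its TPM, at 264, 264 and 285 against 229, 218 and 238, were lower in every mutant library. The call was lost when any 1 of the 6 libraries was left out, with adjusted p of 0.0568 to 0.0998. Serpinc1, the most abundant of the 33 transcripts, had TPM of 3326.7, 3453.2 and 3162.5 in the controls and 2515.6, 2506.0 and 2816.8 in the mutants. Its log2 fold change was 0.25 ± 0.09 on the TMM scale (edgeR adjusted p = 0.117) and -0.14 on library totals.

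Serpina10, which encodes the protein Z-dependent inhibitor of activated factor X, was among the 3 hepatocyte-made genes below 0 on the TMM scale, with Hgfac and Kng2. It had TPM of 149, 158 and 115 in the controls and 75.8, 79.8 and 73.0 in the mutants, the lowest mutant share of the hepatocyte-made genes at 54.2%. The log2 fold change was -0.29 ± 0.14 on the TMM scale, with an edgeR adjusted p of 0.209, and -0.68 on library totals. Hgfac, a protease related to factor XII that activates hepatocyte growth factor, had TPM of 162, 187 and 174 against 103, 96.4 and 118. Its log2 fold changes were -0.13 ± 0.10 and -0.52 on these scales.

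In the fibrinolytic system the liver-made precursor and the activators made elsewhere stood on opposite sides of 0 on the TMM scale. Plg, the precursor of plasmin, had 1945.8, 2010.5 and 1796.2 CPM in the controls and 2792.7, 2608.7 and 2933.9 CPM in the mutants. Its log2 fold change was 0.54 ± 0.10 on the TMM scale (edgeR adjusted p = 0.0104) and 0.14 on library totals, where it was not called. Its TPM overlapped, with 1119.4, 1157.3 and 1051.9 against 1108.1, 949 and 1139.3. Serpinf2 encodes antiplasmin, the main inhibitor of plasmin. It had 629, 638 and 601 CPM against 915, 710 and 953 CPM, with mutant 2 below the other mutants, and its log2 fold change was 0.46 ± 0.12 on the TMM scale (edgeR adjusted p = 0.0397) and 0.07 on library totals. In TPM the mutant mean was lower and the groups overlapped, with 549, 558 and 535 against 551, 392 and 562. With 1 library left out at a time Serpinf2 was called only without mutant 2, with adjusted p up to 0.122. Cpb2, the carboxypeptidase that slows fibrinolysis, had TPM of 223, 227 and 228 against 180, 169 and 188, and its log2 fold change was 0.26 ± 0.08 on the TMM scale (edgeR adjusted p = 0.0669) and -0.14 on library totals.

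The plasminogen activators are tissue plasminogen activator (Plat) and urokinase (Plau), whose receptor on the cell surface is Plaur. Plau had TPM of 3.09, 1.12 and 2.02 in the controls and 0.214, 0.442 and 0.472 in the mutants. Plat had 0.583, 1.19 and 0.655 against 0.161, 0.114 and 0.0836 TPM. All mutant libraries lay below all controls for both, and the controls differed among themselves more than the mutants did in TPM.

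The log2 fold change of Plau was -1.86 ± 0.49 on the TMM scale (edgeR adjusted p = 0.0406) and -2.26 on library totals, from 401.2 estimated counts in all controls and 80.4 in all mutants. That of Plat was -2.15 ± 0.53 (edgeR adjusted p = 0.0323) and -2.55 on library totals, from 169.3 and 29.1 estimated counts. The call of Plat was lost when any 1 of the 6 libraries was left out, with adjusted p of 0.0663 to 0.124, and Plau was called only without control 2, with adjusted p of 0.0394 to 0.147. Plaur had TPM of 1.18, 0.598 and 0.694 against 0.260, 0.189 and 0.159. The groups did not overlap, and the log2 fold change of -1.46 ± 0.55 on the TMM scale was not called (edgeR adjusted p = 0.119).

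The 5 other endothelial or stromal members were not called on the TMM scale. Tfpi, the inhibitor of the tissue factor pathway, had TPM of 3.95, 2.76 and 3.02 in the controls and 0.991, 1.45 and 1.42 in the mutants, with a log2 fold change of -0.73 ± 0.27 (edgeR adjusted p = 0.119) and -1.13 on library totals. F8, the cofactor of activated factor IX, had TPM of 2.56, 2.34 and 3.13 against 0.886, 1.10 and 1.30, with a log2 fold change of -0.69 ± 0.20 (edgeR adjusted p = 0.0538) and -1.09 on library totals. F3, tissue factor itself, had 5.48, 3.43 and 3.29 against 1.66, 2.53 and 2.22 TPM, and its log2 fold change was -0.33 ± 0.30 on the TMM scale and -0.73 on library totals.

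For Tfpi, F8 and F3 the TPM of the groups did not overlap. On the TMM scale F3 did overlap, with 5.51, 3.43 and 3.24 CPM in the controls and 2.41, 4.00 and 3.32 CPM in the mutants. Vwf, the carrier of factor VIII and a marker of large-vessel endothelium, and Thbd, thrombomodulin, overlapped. Vwf had TPM of 2.69, 2.00 and 3.51 against 2.19, 2.77 and 1.35, with a log2 fold change of 0.23 ± 0.30 on the TMM scale, -0.075 without mutant 2 and -0.17 on library totals. Thbd had 1.13, 1.07 and 1.35 against 0.532, 1.32 and 1.17 TPM, with log2 fold changes of 0.37 ± 0.37 and -0.03 on these scales.

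Marker lists of endothelial, stromal and blood cells are given here beside these 8 genes. The 10 endothelial markers summed to 85.3 to 157.3 TPM in the controls and 46.1 to 69.1 TPM in the mutants, with a median log2 fold change of -0.62 on the TMM scale, where their CPM sums overlapped (144 to 251 against 109 to 165). The 8 stellate and fibroblast markers summed to 310 to 349 against 98.6 to 116 TPM, with a median of -1.18, and the 6 monocyte and macrophage markers to 109 to 151 against 31.5 to 45.7 TPM, with a median of -1.65. The 5 Kupffer cell markers summed to 148 to 203 against 42.6 to 88.4 TPM. None of these 4 lists had a marker at 0 in any library. The 6 platelet markers were near 0, with sums of 5.00 to 9.46 against 2.34 to 6.31 TPM, and 4 of them were listed at 0 in at least 1 library. The platelet sums overlapped on the TMM scale, and none of the 4 tested platelet markers was called. The 4 neutrophil markers summed to 16.3 to 23.4 against 2.34 to 3.85 TPM, and 2 of them were listed at 0 in at least 1 library. The 4 lymphocyte markers summed to 2.54 to 3.60 against 1.18 to 1.47 TPM. The part of these cells in the levels of the 8 genes was not tested.

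**Figure D4:**
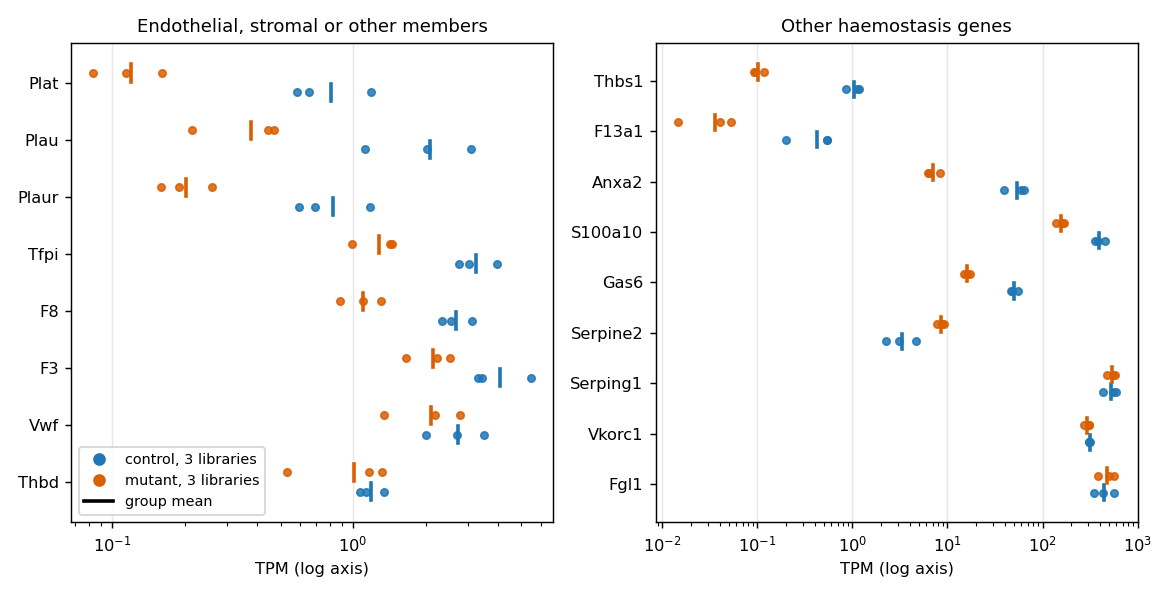
TPM on log axes, 1 point per library with a bar at each group mean, for the 8 endothelial, stromal or other members on the left and for 9 haemostasis genes outside the set on the right. Plat, Plau, Plaur, Tfpi, F8 and F3 show no overlap on the left, and Thbs1, F13a1, Anxa2, S100a10, Gas6 and Serpine2 show none on the right.

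A further 29 haemostasis genes outside the set were listed by function, of which 24 could be tested. Of these 4 were called higher on the TMM scale, 7 lower and 13 not, with a median log2 fold change of -0.20, beside 6.64% of all tested genes called higher and 6.82% lower. On library totals 1 was called higher and 12 lower, beside 2.05% and 31.6% of all genes. Genes of vitamin K metabolism and factor secretion had 1 of 5 called higher, inhibitors and regulators 3 of 13 tested higher and 5 lower, cell-surface fibrinolysis genes 2 of 4 lower, and neither of the 2 tested protease-activated receptors was called.

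Among those called lower were genes of the plasminogen system. Anxa2 and S100a10 encode the partners of a cell-surface complex that binds plasminogen and its tissue activator. Anxa2 had TPM of 39.5, 59.0 and 63.9 in the controls and 6.27, 6.37 and 8.38 in the mutants (log2 fold change -2.36 ± 0.20 on the TMM scale, edgeR adjusted p = 0.000531). S100a10 had 354, 454 and 381 against 161, 137 and 170 TPM (log2 fold change -0.76 ± 0.12, edgeR adjusted p = 0.00645). In both genes every mutant library lay below every control.

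Thbs1, thrombospondin, had TPM of 1.11, 0.850 and 1.17 against 0.117, 0.0934 and 0.0913 (log2 fold change -2.77 ± 0.31, edgeR adjusted p = 0.00137). F13a1, the catalytic subunit of factor XIII, which macrophages and platelets make, had 0.543, 0.545 and 0.198 against 0.0146, 0.0400 and 0.0529 TPM (log2 fold change -2.99 ± 0.69, edgeR adjusted p = 0.0269). With 1 library left out at a time F13a1 was called only without control 3 or mutant 3, with adjusted p up to 0.0945. Its carrier subunit gene F13b, made in hepatocytes, had a log2 fold change of 0.32 on the TMM scale and was not called. Gas6, a vitamin K-dependent protein related to protein S, had 48.0, 54.8 and 46.4 against 17.4, 16.1 and 15 TPM (log2 fold change -1.02 ± 0.11, edgeR adjusted p = 0.00124).

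Of the 4 called higher, Serpine2, a thrombin and urokinase inhibitor, had TPM of 3.10, 4.71 and 2.25 in the controls and 7.67, 8.85 and 9.2 in the mutants, with a log2 fold change of 1.95 ± 0.27 on the TMM scale (edgeR adjusted p = 0.0034). The TPM of the other 3 overlapped between the groups. Vkorc1, the enzyme that recycles vitamin K for the making of factors II, VII, IX and X, had a log2 fold change of 0.52 ± 0.10 on the TMM scale (edgeR adjusted p = 0.0131), and its mean TPM was lower in the mutants. Serping1, the inhibitor of activated factor XII and kallikrein, had 0.62 ± 0.13 (edgeR adjusted p = 0.0186), and Fgl1, a secreted fibrinogen-like protein, 0.70 ± 0.18 (edgeR adjusted p = 0.0408). None of these 3 was called on library totals, where the log2 fold changes were 0.12, 0.22 and 0.31. With 1 library left out at a time, Vkorc1 lost its call without control 1 or mutant 1 and Serping1 without mutant 1. Fgl1 was called only without control 2 or mutant 2, with edgeR adjusted p up to 0.125.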

How the data were processed

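Liver poly(A) RNA was read in 6 libraries. The submitters' processing notes name cutadapt, STAR and build mm10. No source used here names the quantifier, the annotation or the strandedness. The deposited tables hold the authors' estimated counts (none of the nonzero values whole within 1e-06) and TPM for 55487 genes. Columns were matched by title.

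Counts were rounded and fitted with edgeR 4.0.16 in R 4.3.3: filterByExpr, TMM, quasi-likelihood test on group alone, Benjamini-Hochberg over 14286 genes. A gene was called at an adjusted p under 0.05. Alternatives used RLE, library totals, no filter, DESeq2 1.42.0, limma 3.58.1 on log2(TPM + 1) and log2(TPM + 0.1), a replicate block and each library left out. Totals without Mup genes, neighbour ratios (members within 100000 bases) and the alternatives for the other haemostasis genes were added after seeing the data.

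Members and lists were chosen with earlier results of these data known. All members were described. Other haemostasis genes were named where called with no overlap in CPM, up to 6 per direction by smallest p, if mean CPM reached 1 in a group. One gene that met this rule is not reported here. The fit was tested on simulated data. Coordinates are from GENCODE M21 on mm10. Of the members 5 share exons with another gene, 4 of them on the opposite strand (F5, Fgg, Plg and Serpinc1). Library pairs differed by a chi-square of at least 43.8 per gene.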

Additional observations from a re-analysis of the deposited data

How the results depend on the processing

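RLE size factors, no filter and DESeq2 left the direction of all 33 members, and 12 of 12 calls, as given. No filter added 1 call among the members and DESeq2 added 3. With the replicate number as a block 1558 genes were called, 8 of the 10 hepatocyte-made calls were kept and 0 of the 2 others. No source used here pairs the libraries by number. Correlations of deviations from the group means were 0.017, -0.003 and 0.063 for the same number, and -0.065 to 0.056 for unlike numbers. Such values cannot exclude a weak pairing.

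On library totals 4801 genes were called, with 1 hepatocyte-made member higher and 6 lower, 5 other members lower, and 1 haemostasis gene outside the set higher and 12 lower. Directions turned to log2 fold changes of -0.13 for F2, -0.36 for F5, -0.33 for F9, -0.078 for F13b, -0.38 for Fga, -0.39 for Fgb, -0.36 for Fgg, -0.14 for Serpinc1, -0.0497 for Serpind1, -0.25 for Pros1, -0.17 for Proz, -0.061 for Kng1, -0.14 for Cpb2, -0.0305 for Thbd and -0.17 for Vwf. Without the Mup genes in the totals 2.85% of all tested genes were called higher and 13.8% lower. In that setting 4 hepatocyte-made members were called higher and 1 lower, and 3 other members lower. Of the outside genes 1 was called higher and 10 lower. Directions turned to -0.18 for F5, -0.14 for F9, -0.20 for Fga, -0.21 for Fgb, -0.18 for Fgg and -0.069 for Pros1.

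By limma on log2(TPM + 1) 7579 genes were called, on log2(TPM + 0.1) 7526 and with no filter 6581. Of all genes tested in these 3 settings 63.6%, 63.2% and 28.0% were called lower. In these 3 settings 1 hepatocyte-made member was called higher and 16, 16 and 12 lower, 4, 4 and 5 other members lower, and 1 outside gene higher and 16, 16 and 15 lower. Directions turned to -0.33 for F2, -0.56 for F5, -0.53 for F9, -0.13 for F10, -0.15 for F12, -0.27 for F13b, -0.57 for Fga, -0.58 for Fgb, -0.55 for Fgg, -0.062 for Plg, -0.34 for Serpinc1, -0.25 for Serpind1, -0.14 for Serpinf2, -0.074 for Proc, -0.45 for Pros1, -0.36 for Proz, -0.26 for Kng1, -0.33 for Cpb2, -0.064 for Hrg, -0.14 for Thbd and -0.27 for Vwf with or without the filter. With the smaller pseudocount they were -0.33 for F2, -0.57 for F5, -0.53 for F9, -0.13 for F10, -0.15 for F12, -0.28 for F13b, -0.57 for Fga, -0.59 for Fgb, -0.55 for Fgg, -0.062 for Plg, -0.34 for Serpinc1, -0.25 for Serpind1, -0.14 for Serpinf2, -0.074 for Proc, -0.47 for Pros1, -0.37 for Proz, -0.26 for Kng1, -0.33 for Cpb2, -0.064 for Hrg, -0.29 for Thbd and -0.38 for Vwf.

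With 1 library left out, 882 to 1514 genes were called, 2.87 to 5.1% of the tested genes higher and 2.93 to 5.09% lower. Of the hepatocyte-made members 6 to 8 were called higher, and of the other members 0 to 1 lower. Outside the set 1 to 4 genes were called higher and 5 to 7 lower. Fga gave log2 fold changes of -0.10 to 0.18, Fgb -0.074 to 0.12 and Fgg -0.048 to 0.18, F5 -0.064 to 0.13 and Vwf -0.075 to 0.48. Plat and Plau rest on the fewest counts of the called members, and the part of depth in their lost calls was not tested.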
